A study of Homo sapiens with 6 samples.

Results

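The 8 mature miRNAs described here are hsa-miR-124-3p, hsa-miR-129-5p, hsa-miR-129-2-3p, hsa-miR-132-3p, hsa-miR-212-3p, hsa-miR-203a-3p, hsa-miR-335-5p and hsa-miR-335-3p. They were chosen by name, as miRNAs reported to be silenced by methylation of the promoter DNA in leukaemia or other cancers, and all 8 are among the 2656 miRNAs of the deposited count table. Small RNA was sequenced from K562, a human erythroleukaemia line that carries the BCR-ABL1 fusion, comparing cells sensitive to azacitidine with cells that had become resistant while cultured for months under increasing doses of it. There were 3 libraries of sensitive and 3 of resistant cells, described as biological replicates. The labels give no number of separate selections of resistant cells, do not explain the letters NT in all 6 library names, and do not say whether the drug was present at harvest. The p-values therefore measure the spread between these libraries, which may be technical.

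Once incorporated into DNA, azacitidine, a relative of cytidine, traps the DNA methyltransferases, and methylation is then lost as DNA is copied. A methylated CpG-rich promoter is usually silent, and the demethylating drugs are known for restoring transcription of some silenced miRNA genes. A miRNA hairpin is cut into a 5p and a 3p arm, and the arm loaded into Argonaute pairs with transcripts through its seed, bases 2 to 8 from the 5′ end. miR-124 and the neighbouring miR-132 and miR-212 are known as neuronal miRNAs, miR-203a as a miRNA of the epidermis that targets ABL1, miR-129-5p as a repressor of SOX4, and miR-335, made from an intron of the imprinted gene MEST, as a suppressor of metastasis.

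The mature sequences are shown because the seeds group the miRNAs and because their base composition moved with the values of 1 library. Sequences are from RefSeq (GRCh38.p14), 5′ to 3′, with the seed in capitals. Of the 8 members, 7 matched an entry and miR-124-3p did not.
miR-129-5p: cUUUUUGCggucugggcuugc
miR-129-2-3p: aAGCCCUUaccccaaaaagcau
miR-129-1-3p: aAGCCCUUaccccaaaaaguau
miR-132-3p: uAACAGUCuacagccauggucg
miR-212-3p: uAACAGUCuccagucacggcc
miR-203a-3p: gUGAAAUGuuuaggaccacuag
miR-335-5p: uCAAGAGCaauaacgaaaaaugu
miR-335-3p: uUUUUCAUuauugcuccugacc
miR-132-3p and miR-212-3p have the same seed and were alike at 17 of 21 positions compared, with differences A10C, C14U, U17C and U20C (the base of miR-132-3p first, positions from 1 at the 5′ end). The 3p products of the paired miR-129 hairpins differ at a single position, C20U (the base of miR-129-2-3p first), and how reads that match both were counted is not given in the sources used here. The sequence of miR-129-5p is held by 2 hairpins, MIR129-1 and MIR129-2, so its counts do not show which locus they came from. The mature GC content ran from 30.4% for miR-335-5p to 57.1% for miR-129-5p and miR-212-3p.

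Apart from miR-124, whose hairpins are not included, the hairpins differ widely in their content of CpG dinucleotides, the bases that DNA methyltransferases act on. They are shown with each CpG in capitals because this property separates the loci independently of their counts.
MIR212: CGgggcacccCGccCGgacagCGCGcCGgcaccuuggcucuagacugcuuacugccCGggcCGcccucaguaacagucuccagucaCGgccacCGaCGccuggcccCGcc
MIR132: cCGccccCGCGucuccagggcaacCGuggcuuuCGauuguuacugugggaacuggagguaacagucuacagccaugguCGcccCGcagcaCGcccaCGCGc
MIR203A: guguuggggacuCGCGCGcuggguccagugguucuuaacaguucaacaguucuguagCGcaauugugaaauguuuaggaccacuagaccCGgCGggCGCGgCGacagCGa
MIR129-2: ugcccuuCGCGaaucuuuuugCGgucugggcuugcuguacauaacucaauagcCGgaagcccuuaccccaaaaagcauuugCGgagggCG
MIR335: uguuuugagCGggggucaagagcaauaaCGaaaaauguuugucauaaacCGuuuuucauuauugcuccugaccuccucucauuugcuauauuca
MIR212 held 12 CpG in 110 bases, MIR132 10 in 101 bases and MIR203A 10 in 110 bases, against a median of 1 over the 1560 human hairpins of the table. Only 2.56% of these hairpins had at least as many CpG as MIR212, and 3.91% at least as many as MIR132 or MIR203A. MIR129-2 held 6 (10% of hairpins had at least as many), MIR335 held 3 (25%) and MIR129-1 held 1 (64.2%). The GC content was 73.6% for MIR212 and 38.3% for MIR335, against a median of 52.1%. These counts describe the hairpins themselves, since no promoter window of a miRNA hairpin was used and no methylation was measured.

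**Figure D1:**
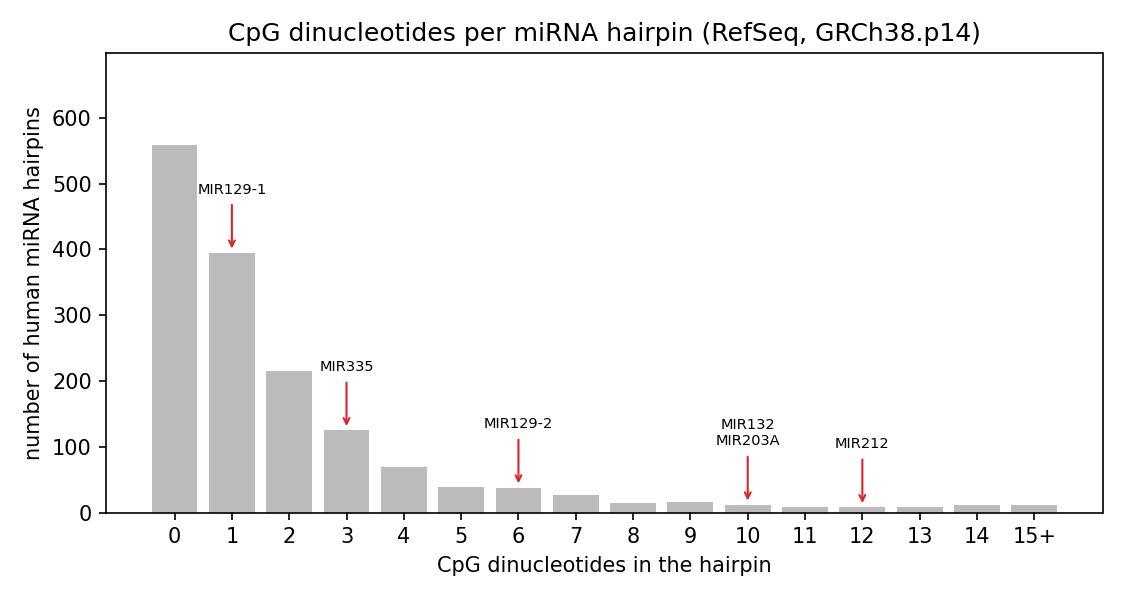
Number of human miRNA hairpins (y axis) by the number of CpG dinucleotides in the hairpin (x axis, 15 or more in the last bar), from RefSeq sequences. Arrows mark the hairpins described: MIR212, MIR132 and MIR203A lie in the sparse upper end at 10 to 12, and MIR335 and MIR129-1 at 3 and 1.

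In GENCODE release 29 (GRCh38), MIR132 (chr17:2049908-2050008, minus strand) and MIR212 (chr17:2050271-2050380, minus strand) lie 263 bases apart in no other annotated gene, and HIC1, itself known as a gene hypermethylated in cancer, lies 3774 bases from MIR212 on the opposite strand. MIR203A (chr14:104117405-104117514, plus strand) is intergenic, 1824 bases from ASPG, and MIR203B overlaps it on the opposite strand. MIR129-2 (chr11:43581394-43581483, plus strand) lies in introns of the non-coding genes AC068205.1 and AC068205.2. MIR129-1 (chr7:128207872-128207943, plus strand) is intergenic, 33341 bases from LEP. MIR335 (chr7:130496111-130496204, plus strand) lies in an intron of MEST and overlaps an exon of AC007938.2 on the opposite strand. The 5 windows of 300 bases at RefSeq starts of MEST (GRCh38.p14) held 13 to 25 CpG. The median was 14 over the 35116 such windows compared, which did not cover all chromosomes.

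Library totals ran from 3291500 to 12563945 counts, the lowest in resistant replicate 3. That library stood apart: its log2 (CPM + 0.5) correlated with the other resistant libraries at r = 0.871 and 0.882 across tested miRNAs. Between those 2 libraries r was 0.996, and among the sensitive libraries it was 0.98 to 0.993. Annotations that resemble fragments of other RNAs took 5.04% of its counts and 1.03% to 1.71% elsewhere. Results are therefore given with and without it. CPM are counts relative to the library total, scaled by trimmed mean of M values (TMM) factors. All 5 erythroid markers were present. miR-486-5p was at 4744 to 13140 CPM in 5 libraries and at 63300 CPM in resistant replicate 3, while miR-451a was at 51.5 to 343 CPM. With all libraries, 2 of these 5 markers had positive and 3 negative log2 fold changes, and 0 passed an edgeR adjusted p of 0.05. Without resistant replicate 3, 4 were positive and 1 negative. In that fit 2 passed as higher in resistant cells, as did 13.7% of 822 tested miRNAs. All 5 myeloid markers were present too, with miR-142-3p at 5578 to 7558 CPM in 5 libraries and at 614.8 CPM in resistant replicate 3. The log2 fold changes of all 5 were negative with and without that library. With all libraries 0 of them passed, against 4.17% of 768 tested miRNAs. Without resistant replicate 3, 2 passed as lower, as did 14.4% of 822. The lymphoid miR-155-5p did not exceed 0.786 CPM. In RNA from a bulk culture, fewer cells with a miRNA and less of it per cell cannot be told apart.

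None of the 8 miRNAs was called different between resistant and sensitive cells with all 6 libraries. The low-count filter kept 6 members, and 0 of these passed an edgeR adjusted p of 0.05, where 4.17% of the 768 miRNAs tested passed (2.08% higher and 2.08% lower in resistant cells). At an unadjusted p under 0.05 the count was also 0 with edgeR, where 26.7% of all tested miRNAs had such a p. DESeq2, which called 19.4% of all tested miRNAs, and limma-voom, which called 40 of 768, called 0 members as well. Limma-voom with sample quality weights called 2, both miR-129 products, where it called 42.1% of all. The tested members had a median log2 fold change of -0.36, against -0.11 over all tested miRNAs. Levels spanned more than differences did, as the plot of CPM by library shows: miR-335-3p ranked 133 of the 768 tested miRNAs by mean CPM, miR-132-3p 239, miR-335-5p 340, miR-129-5p 345, miR-212-3p 511 and miR-129-2-3p 721. miR-335-5p and miR-129-5p, neighbours in this order, did not differ beyond their spread. Adapter ligation differs between miRNAs, so the order holds for counts and only roughly for molecules. The members together made up 0.056% to 0.0935% of the counts in 5 libraries and 0.0189% in resistant replicate 3.

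**Figure D2:**
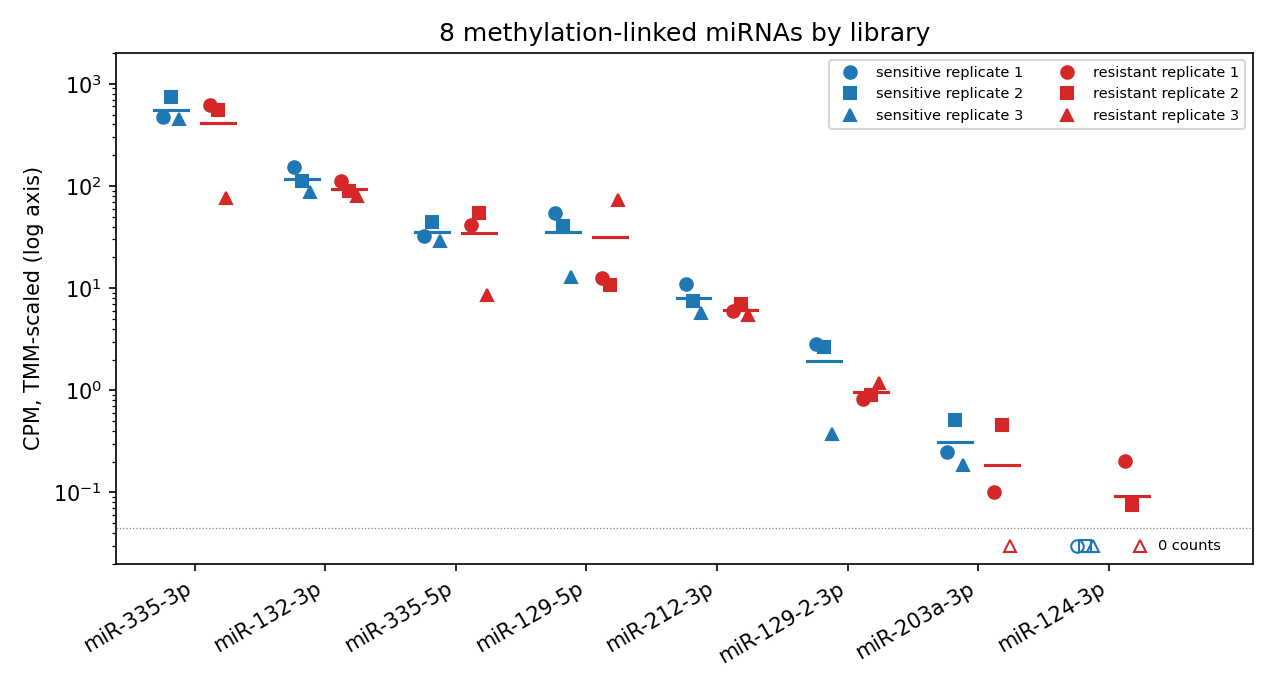
CPM of the 8 miRNAs on a log axis for each of the 3 sensitive (blue) and 3 resistant (red) libraries, with the group mean as a bar and libraries without counts as open symbols under the dotted line. The groups overlap for all 8 miRNAs, and resistant replicate 3 (red triangle) is lowest for both arms of miR-335 and highest for miR-129-5p.

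hsa-miR-335-3p, the most abundant of the 8, was at 468, 735 and 451 CPM in sensitive replicates 1 to 3 and at 617, 555 and 76.6 CPM in resistant replicates 1 to 3. Resistant replicates 1 and 2 lay inside the sensitive range and resistant replicate 3 far below it. The means were 551 ± 159 and 416 ± 296 CPM (SD, n = 3 each), with a log2 fold change of -0.41 (SE 0.70, edgeR adjusted p = 0.711). Without resistant replicate 3 the sign turned, at 0.14 (SE 0.24, edgeR adjusted p = 0.728).

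The other arm, hsa-miR-335-5p, was at 32.6, 43.9 and 29.2 CPM in sensitive and 41.2, 54.3 and 8.64 CPM in resistant libraries. Resistant replicate 3 was again the lowest of all 6, and resistant replicate 2 was the highest. Its log2 fold change was -0.01 with all libraries (SE 0.63, edgeR adjusted p = 0.994) and 0.50 without resistant replicate 3 (SE 0.27, edgeR adjusted p = 0.198). Of the reads of both arms, 93.9 ± 0.43% in sensitive cells and 91.6 ± 1.98% in resistant cells came from the 3p arm (SD, n = 3 each). This difference of -2.37 percentage points gave a two-sided exact permutation p of 0.2 (0.6 adjusted over the 4 arm shares compared). With 3 libraries against 3 the smallest p this test can give is 0.1.

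By the root mean square difference of log2 CPM centred on each miRNA over the 6 libraries, the miRNAs nearest to miR-335-3p among 468 with a mean of at least 10 CPM were miR-374a-3p (0.154), miR-548n (0.19) and miR-29c-3p (0.201). Each of them was lowest in resistant replicate 3: miR-374a-3p was at 250 to 310 CPM in 5 libraries and at 33 CPM there. Their mature GC content was 22.7%, 27.3% and 36.4%, beside 36.4% for miR-335-3p.

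hsa-miR-132-3p, which neurons induce through CREB, was at 153, 111 and 87.2 CPM in sensitive and 113, 89.9 and 79.7 CPM in resistant libraries, so that the ranges overlapped. Resistant replicate 3 was the lowest library but lay close to the next. The log2 fold change was -0.31 (SE 0.40, edgeR adjusted p = 0.632), and -0.16 without resistant replicate 3 (SE 0.27, edgeR adjusted p = 0.731).

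hsa-miR-212-3p, with the same seed, was at 11.1, 7.46 and 5.74 CPM in sensitive and 5.9, 6.94 and 5.5 CPM in resistant libraries (133, 73, 31 and 58, 92, 14 counts). The groups overlapped, with a log2 fold change of -0.40 (SE 0.43, edgeR adjusted p = 0.566) and -0.30 without resistant replicate 3 (SE 0.33, edgeR adjusted p = 0.567). For every 100 counts of miR-132-3p there were 7.26, 6.7 and 6.58 counts of miR-212-3p in sensitive and 5.23, 7.72 and 6.9 in resistant libraries, a ratio computed after the values were seen. It stayed between 5.23 and 7.72 in all 6 libraries, with overlapping groups. Summed, the seed pair was at 92.9 to 164 CPM in sensitive and 85.2 to 119 CPM in resistant libraries, nearly all of it miR-132-3p.

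The 5p arms of this cluster are not among the 8. The miR-212 5p arm had 407 counts against 237 of the 3p arm in sensitive and 321 against 164 in resistant libraries, but 9 against 14 in resistant replicate 3. miR-132-5p was at 157, 134 and 152 CPM in sensitive and 91.3, 109 and 71.1 CPM in resistant libraries, and here the groups did not overlap, as was the case for 41.8% of all tested miRNAs (53.3% without resistant replicate 3). Its log2 fold change of -0.71 did not pass (SE 0.37, edgeR adjusted p = 0.243), nor did the -0.51 without resistant replicate 3 (SE 0.23, edgeR adjusted p = 0.128). Limma-voom with sample quality weights called miR-132-5p lower (adjusted p = 0.0196), in a fit that called 42.1% of all tested miRNAs. The sign was negative in all 17 settings, which reuse the same libraries. The 5p arm held 56.3 ± 6.55% of the miR-132 reads in sensitive cells and 48.8 ± 5.21% in resistant cells (SD, n = 3 each; two-sided exact permutation p = 0.3, adjusted 0.6). miR-212-5p was at 20.2, 12.8 and 7.22 CPM in sensitive and 16.6, 11.2 and 3.54 CPM in resistant libraries (log2 fold change -0.34, SE 0.62, edgeR adjusted p = 0.732). The 5p share of miR-212 reads ranged from 55.7% to 64.6% among sensitive libraries, and resistant replicates 1 to 3 had 73.8%, 61.8% and 39.1% (exact 95% binomial intervals 67.4% to 79.4%, 55.4% to 68% and 19.7% to 61.5%). The lowest of these shares rests on 23 counts of both arms (two-sided exact permutation p = 0.8, adjusted 0.9).

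**Figure D3:**
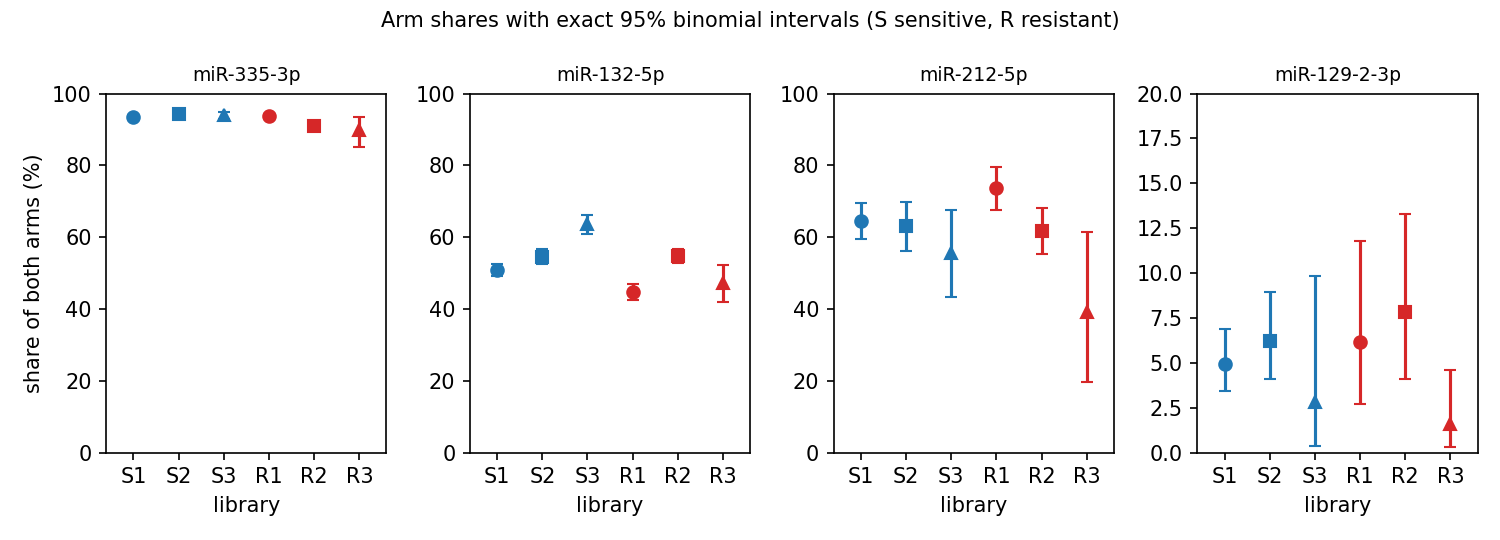
Share of the named arm in the reads of both arms (y axis, %) in each library (S1 to S3 sensitive, R1 to R3 resistant), with exact 95% binomial intervals that cover counting error only. The y axis of the panel on the right ends at 20%, and the groups overlap in all 4 panels.

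hsa-miR-129-5p differed widely between libraries of the same form. It was at 54.3, 40.2 and 12.8 CPM in sensitive replicates 1 to 3 (652, 394 and 69 counts) and at 12.4, 10.6 and 72.7 CPM in resistant replicates 1 to 3 (122, 141 and 185 counts). Resistant replicate 3 was the highest of all 6 libraries, while resistant replicates 1 and 2 were the lowest, just under sensitive replicate 3. With all libraries the means were 35.8 ± 21.1 and 31.9 ± 35.3 CPM (SD, n = 3 each) and the log2 fold change was -0.19 (SE 0.85, edgeR adjusted p = 0.886). When resistant replicate 3 was left out, the level fell 3.02-fold in resistant cells, with an edgeR adjusted p of 0.0244 (log2 fold change -1.59, SE 0.47). miR-129-5p was then the only one of the 6 tested members called, where 28.1% of 822 tested miRNAs were called and 14.4% were called lower, and the closest libraries of both forms, at 12.8 and 12.4 CPM, nearly touched. Limma-voom with sample quality weights also called it lower (log2 fold change -1.82, adjusted p = 0.000139), as 42.1% of all tested miRNAs were called in that fit. Over the 17 settings run its adjusted p ranged from 0.000139 to 0.969, and its sign was negative in 10 and positive in 7.

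hsa-miR-129-2-3p, made from MIR129-2 alone, was at 2.83, 2.66 and 0.37 CPM in sensitive and 0.814, 0.906 and 1.18 CPM in resistant libraries, from 34, 26, 2 and 8, 12, 3 counts. Sensitive replicates 1 and 2 were the highest and sensitive replicate 3 the lowest, so the resistant libraries fell between them. The log2 fold change was -1.12 (SE 0.71, edgeR adjusted p = 0.329) with all libraries and -1.23 without resistant replicate 3 (SE 0.61, edgeR adjusted p = 0.161). Its sign was negative in all 14 settings that tested it, which reuse the same libraries. Limma-voom with sample quality weights called it lower (log2 fold change -1.38, adjusted p = 0.0143), in a fit that called 42.1% of all tested miRNAs.

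In resistant replicate 3, where miR-129-5p was high, this 3p product had 3 counts. Its 1.18 CPM lay above resistant replicates 1 and 2 (0.814 and 0.906 CPM) and below sensitive replicates 1 and 2 (2.83 and 2.66 CPM). Counts this low cannot show whether it shared the high level. The 3p share of miR-129-5p and miR-129-2-3p together was 4.96%, 6.19% and 2.82% in sensitive and 6.15%, 7.84% and 1.6% in resistant libraries (two-sided exact permutation p = 0.9, adjusted 0.9). The intervals are wide, 0.33% to 4.59% for resistant replicate 3 and 0.343% to 9.81% for sensitive replicate 3 (exact 95% binomial). miR-129-1-3p, the product of the other hairpin, had 6, 8 and 0 counts in sensitive and 2, 1 and 0 counts in resistant libraries, too few to test. The miRNAs nearest to miR-129-2-3p in pattern, by the same measure, were miR-1246 (0.377), miR-375-3p (0.392) and miR-548j-5p (0.44). The pattern of miR-129-2-3p rests on 2 to 34 counts per library. At its level the added 0.5 CPM narrows the differences between libraries, so this likeness is only rough. miR-1246, on the list of annotations that resemble fragments of other RNAs, was at 3750, 5600 and 921 CPM in sensitive and 1770, 1890 and 3790 CPM in resistant libraries, with sensitive replicate 3 lowest here too.

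**Figure D4:**
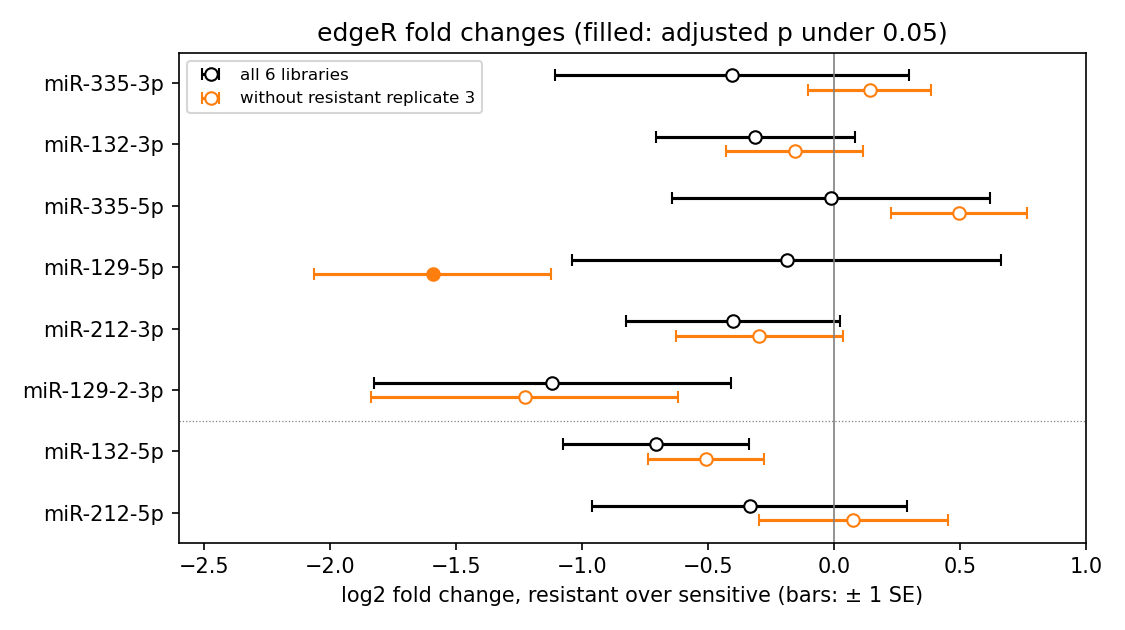
Log2 fold change, resistant over sensitive (x axis, bars ± 1 SE), for the 6 tested members and, under the dotted line, the 5p arms of miR-132 and miR-212, with all 6 libraries (black) and without resistant replicate 3 (orange). The filled point, miR-129-5p without resistant replicate 3 at -1.59, is the only value with an edgeR adjusted p under 0.05.

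hsa-miR-203a-3p and hsa-miR-124-3p were at the edge of detection in both forms of the line. miR-203a-3p had 3, 5 and 1 counts in sensitive and 1, 6 and 0 counts in resistant libraries, or 0.331 CPM over the sensitive group (exact 95% Poisson interval 0.151 to 0.628) and 0.273 CPM over the resistant group (0.11 to 0.563). The ratio of resistant to sensitive was 0.826, with a counting interval of 0.261 to 2.49. These intervals cover counting error only. Its 5p arm and both arms of miR-203b had 0 counts in all 6 libraries.

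hsa-miR-124-3p had 0 counts in each sensitive library and 2, 1 and 0 counts in resistant replicates 1 to 3. By the exact Poisson interval used for miR-203a-3p, a count of 0 over the sensitive group allows up to 0.136 CPM (3.69 counts). The 3 counts over the resistant group came to 0.117 CPM (interval 0.0241 to 0.342), which lies under that limit. Neither form can therefore be said to express miR-124-3p, and no fold is given. The passenger arm miR-124-5p had 0 counts in every library. Of 11 neuronal markers in the table, miR-137-3p and miR-219a-2-3p were also at 0, miR-138-5p did not exceed 0.204 CPM, and miR-9-5p, miR-128-3p and miR-7-5p were present, the last at 583.7 to 5397 CPM. Summed, the neuronal markers were at 14350 to 15460 CPM in sensitive and 5388 to 10080 CPM in resistant libraries. In resistant replicates 1 and 2 the lower sum lay in miR-9: miR-9-5p was at 1113 and 964.8 CPM there, against 2624 to 6895 CPM in sensitive libraries, while miR-128-3p (5182 and 5095 CPM) and miR-7-5p (3575 and 2999 CPM) lay inside their sensitive ranges. With all libraries edgeR called 0 of the 5 neuronal markers tested, against 4.17% of all tested miRNAs. Both miR-9 arms had an unadjusted edgeR p under 0.05 (0.00465 for miR-9-5p and 0.00222 for miR-9-3p), as did 26.7% of all tested miRNAs. Without resistant replicate 3, 2 neuronal markers were called lower, both miR-9 arms, where 14.4% of 822 tested miRNAs were called lower. The 7 epithelial markers, miR-203a-3p among them, summed to 117.3 to 142.9 CPM in sensitive and 326.6 to 452.9 CPM in resistant libraries, of which miR-205-5p did not exceed 0.151 CPM. Their higher sum lay in miR-200c-3p, and the list was mixed in direction: 2 of the 5 tested had positive and 3 negative log2 fold changes (median -0.75). miR-200a-3p was at 11.1 to 14.1 CPM in sensitive and 1.57 to 6.26 CPM in resistant libraries, and miR-200b-3p at 19.8 to 27.6 and 12.8 to 15.6 CPM. The part of these cell type markers in the members' values was not tested.

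The values of resistant replicate 3 moved with base composition. Across 677 tested miRNAs with a sequence, its log2 deviation from resistant replicates 1 and 2 rose with mature GC content (Spearman's rho 0.714, points that share the same 3 libraries). The median deviation was -2.01 for the 167 miRNAs under 40% GC and 0.54 for the 199 with 50% to 60%. miR-335-3p and miR-335-5p, at 36.4% and 30.4% GC, deviated by -2.93 and -2.39, and miR-129-5p, at 57.1%, by 2.61. miR-212-3p has the same GC content as miR-129-5p and deviated by -0.20, and miR-132-3p, at 50%, by -0.34. With offsets fitted on GC content, 0 of the 6 members were called, where 74 of the 677 miRNAs tested in that fit were called. The log2 fold change was then -1.04 for miR-129-5p (edgeR adjusted p = 0.339) and 0.87 for miR-335-5p (edgeR adjusted p = 0.0844). The part of base composition in the members' differences was not tested beyond these fits.

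**Figure D5:**
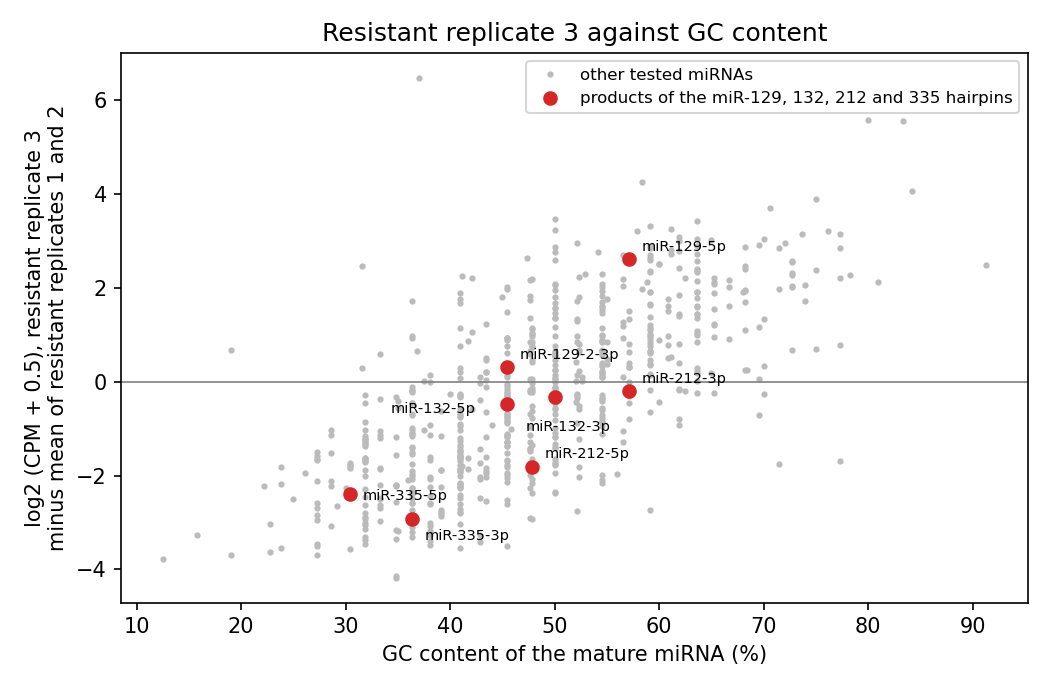
Deviation of resistant replicate 3 from the mean of resistant replicates 1 and 2 (y axis, log2 of CPM + 0.5) against the GC content of the mature miRNA (x axis, %) for 677 tested miRNAs, with the 8 tested products of the miR-129, miR-132, miR-212 and miR-335 hairpins in red. The miR-335 arms lie at the lower left with other AU-rich miRNAs, and miR-129-5p lies above most miRNAs of its GC content.

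Beyond these loci, 36 names of other miRNAs reported as silenced by promoter methylation were listed, of which 34 are in the table. Of the 25 tested, 1 was called higher and 0 lower with all libraries, where 4.17% of all 768 tested miRNAs were called. The log2 fold changes were positive for 12 and negative for 13 (median -0.12, against -0.11 over all tested). The called member was miR-200c-3p, a miRNA that keeps epithelial cells from turning mesenchymal, at 102, 93.2 and 79.6 CPM in sensitive and 321, 294 and 438 CPM in resistant libraries. All 3 resistant libraries lay above all 3 sensitive ones, and for 41.8% of all tested miRNAs the groups likewise did not overlap. The edgeR adjusted p of miR-200c-3p was 0.0355 (log2 fold change 1.94, SE 0.38). The count of 1 became 0 when any of the 3 sensitive libraries or resistant replicate 1 was left out, and 2 without resistant replicate 2. The 3 most abundant tested, miR-126-3p, miR-127-3p and miR-148a-3p, had log2 fold changes of -1.20, 0.20 and 0.52 (edgeR adjusted p = 0.166, 0.733 and 0.592).

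Without resistant replicate 3, 6 of 26 tested miRNAs of this list rose and 5 fell (median 0.04), a share to be read against the 28.1% called overall. Those that rose besides miR-200c-3p were miR-148a-3p, which targets DNMT1 transcripts (2.01-fold, edgeR adjusted p = 0.00134), miR-141-3p, miR-149-5p, miR-193a-5p and miR-615-3p. Those that fell were miR-9-5p (4.5-fold, edgeR adjusted p = 0.000726), miR-9-3p, miR-126-3p, miR-181c-5p and miR-200a-3p. These 11 were named after their values were seen, except miR-200c-3p, miR-126-3p and miR-148a-3p. miR-31-5p, miR-137-3p and miR-1247-5p, also on the list, had 0 counts in all libraries, as miR-203a-5p did.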

How the data were processed

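The authors deposited read counts per mature miRNA for 6 libraries, as whole numbers without normalization. Per the labels' protocols, TriPure RNA went into a small RNA library kit from NEBNext. The submitters' processing notes name GRCh38 as the build. Aligner, counting rule and miRBase release: not given in the sources used here. Also, no molecular identifiers are mentioned, so intervals from counts cover counting error only. Totals per library were 3291500 to 12563945 counts.

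Counts were tested with edgeR 4.0.16 (R 4.3.3) on the whole table: filterByExpr by group (minimum count 10, minimum total 15), TMM factors, the quasi-likelihood F test without covariates, and Benjamini-Hochberg adjustment at 0.05. Fold changes are resistant over sensitive, and each SE was taken from the size of the log2 fold change over the root of its F value. Arm shares were compared with exact two-sided permutation tests (SciPy 1.17.1). Alternatives used DESeq2 1.42.0, limma 3.58.1, other scalings and filters, GC offsets (loess, span 0.75), a replicate block, and fits without each library. The scripts were tested on simulated counts. Replicate pairs had a chi-square per degree of freedom of 124 to 4020, far above sampling noise in every pair. The median log2 fold change of all tested miRNAs was -0.11 with TMM, -0.01 with RLE factors and 0.09 with library totals, and changes are read against it.

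The members and lists were chosen with earlier results of these data known. Named miRNAs are the 8 members, other arms of their hairpins with a count, the called and the 3 most abundant tested miRNAs of the methylation list, and the 3 miRNAs nearest in pattern to the most abundant member and to the member with the lowest p.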

Additional observations from a re-analysis of the deposited data

How the results depend on the processing

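The members called stayed at 0 in every setting except limma-voom with sample quality weights (2) and the fit without resistant replicate 3 (range over fits without each library 0 to 1). Over all miRNAs, 32 of 768 were called, against 21 with RLE factors, 40 with limma-voom, 149 with DESeq2 and 323 with quality weights. Without a filter 162 of 1734 were called, and with a minimum mean of 10 CPM 13 of 467. GC correction gave 74 of 677, and GC correction with replicate block 34 of 677. Without each library in turn, 4 to 231 were called. With library totals, 27 of 43 calls were higher, against 16 of 32. For the other methylation-linked miRNAs the count of 1 of 25 became 2 with library totals, 8 with DESeq2, 2 with limma-voom and 14 with quality weights. It was 6 of 31 without a filter, 5 of 24 with GC correction and 2 of 24 with GC correction and replicate block. Without each library it was 0 to 11. These counts are to be read against the calls over all miRNAs in the same fits.

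The log2 fold changes that changed sign were never called on the other side. miR-129-5p was at 0.072 with RLE factors, 0.13 with a minimum mean of 10 CPM and 0.086 with DESeq2, and at -1.59 to 0.55 without each library. miR-335-5p was at 0.029 with RLE factors, 0.29 with library totals, 0.11 with a minimum mean of 10 CPM, 0.029 with DESeq2, 0.41 with quality weights, 0.87 with GC correction and 0.86 with GC correction and block, and at -0.37 to 0.50 without each library. miR-335-3p was at 0.15 with quality weights, 0.13 with GC correction and 0.069 with GC correction and block, and at -0.72 to 0.14 without each library. Without each library miR-132-3p was at -0.43 to 0.056 and miR-212-3p at -0.53 to 0.028. Arm share differences with counts summed over libraries turned to 2.99 points for miR-212-5p and -0.384 for miR-129-2-3p. Without each library they ran from -10.7 to 6.63 points for miR-212-5p, -0.780 to 2.34 for miR-129-2-3p, -10.4 to -3.84 for miR-132-5p and -3.45 to -1.52 for miR-335-3p. The causes were not tested.

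With the replicate number as a block, 23 miRNAs were called in all, 0 members and 3 of the other list. Same-numbered libraries deviated from their group means with correlations of -0.0713, 0.271 and 0.141, and libraries with different numbers with correlations of -0.254 to 0.217. With 3 libraries in each group these values cannot decide whether the numbers pair the samples, and the labels do not say. miR-129-2-3p was not tested with a minimum mean of 10 CPM or without sensitive replicate 1 or 2, nor miR-212-3p with that minimum, and depth limits miR-129-2-3p, miR-203a-3p and miR-124-3p most.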
